A study of Homo sapiens with 58 samples.

Results

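The acute response of chromatin to loss of SOX9 was measured in SOX9-tagged cranial neural crest cells (CNCCs) as the difference between 500 nM dTAGV-1 for 3 h and vehicle. It rests on 4 of the 58 samples of the series. These are a vehicle sample and a 3 h sample from each of the differentiations R4 and R5, chosen by genotype, treatment and time in the sample titles. All CNCCs were made in vitro from the established human embryonic stem cell line H9. In the SOX9-tagged cells both SOX9 alleles carry FKBP12-F36V, mNeonGreen and V5, and dTAGV-1 directs the tagged protein to degradation. Vehicle samples received vehicle for 24 h, and 3 h samples received vehicle for 21 h and then 500 nM dTAGV-1 for 3 h. Wild-type (WT) CNCCs without the tag were treated in the same way in 4 samples, 2 a group, and show what dTAGV-1 does where no tag is present. The 24 h samples of the same differentiations entered the fits. A separate set of 14 SOX9-tagged samples, 7 at 0 nM and 7 at 500 nM for 48 h, was used for comparison. The titles give clone S9CC13 for the tagged time course, while the R5 columns of the count table name clone S9CC47. The clone in R5 is therefore uncertain, and R4 and R5 may differ by clone as well as by differentiation.

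SOX9 is a transcription factor of the SOXE group, with SOX8 and SOX10, that binds short A/T-rich cores in the minor groove of DNA and bends it. It is required for cartilage formation and acts in the specification and migration of the neural crest. SOXE proteins can bind as dimers to a pair of cores that face each other. ATAC-seq, in which a transposase inserts sequencing adapters into open DNA, reads how accessible a regulatory element (RE) is, and a 3 h window is short enough to leave little time for changes that pass through the synthesis of other proteins. SOX9 protein itself is not read by this assay.

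Several sequences carry the pattern described below and are shown first, all read from hg38 on the plus strand, 5′ to 3′, with every SOX core in capitals. A SOX core was counted as ACAAAG or ACAATG on either strand. The first set holds 5 of the 8 REs with the largest decrease among those that were lower at 3 h and held a pair of facing cores 3 to 5 bases apart. Each line names the nearest protein-coding gene and the window.
OR6B3, chr2:240051953-240052027: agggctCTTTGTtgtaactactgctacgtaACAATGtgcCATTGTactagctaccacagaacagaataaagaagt
PIK3R1, chr5:67773606-67773681: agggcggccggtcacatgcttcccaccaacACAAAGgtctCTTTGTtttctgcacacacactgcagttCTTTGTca
KLF9, chr9:70573456-70573530: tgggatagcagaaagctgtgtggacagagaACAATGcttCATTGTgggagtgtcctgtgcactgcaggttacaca
PLEKHB1, chr11:73652522-73652597: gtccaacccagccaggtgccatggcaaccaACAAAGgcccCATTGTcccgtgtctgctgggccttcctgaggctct
DRD2, chr11:113506211-113506286: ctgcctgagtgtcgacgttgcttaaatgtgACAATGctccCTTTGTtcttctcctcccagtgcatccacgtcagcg
These REs changed by -4.18 (OR6B3) to -3.61 (DRD2) on the log2 scale at 3 h.

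For contrast, 2 REs hold facing cores 4 bases apart and were among the 3 with the smallest absolute change at 3 h among such REs with at least 2 counts per M (CPM, with M for 1e6) in vehicle. They were chosen after their values were seen.
ELK1, chrX:47645075-47645150: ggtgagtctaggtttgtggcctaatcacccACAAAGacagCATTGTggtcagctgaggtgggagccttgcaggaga
OXTR, chr3:8828138-8828213: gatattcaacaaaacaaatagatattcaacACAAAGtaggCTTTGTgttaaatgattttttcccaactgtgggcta
Their log2 fold changes were -0.03 (ELK1) and -0.04 (OXTR). The pair lay 204 (ELK1) and 206 (OXTR) bases from the centre of its RE, against 2 to 63.5 bases in the 5 REs above.

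The table held 151,457 REs, and the 12 time-course samples held 43.02 to 62.59 M counts in them. The 3 h sample of R4 was the shallowest, and its median RE still held 117 counts. No pair of the 12 samples agreed within sampling noise, with a lowest reduced chi-square of 2.179. Promoter REs of the CNCC factors TWIST1, TFAP2A, NR2F1, NR2F2, SNAI2 and PRRX1 were open in both vehicle samples, at 31.5 to 68.9 CPM. No promoter RE was listed for NANOG, PECAM1, PTPRC or ALB, which mark pluripotent cells, endothelium, blood and hepatocytes. POU5F1 was at 0.946 and 1.12 CPM, and MYOD1 at 2.85 and 3.57 CPM, but LIN28A was at 30.1 and 25.5, PAX6 at 13.7 and 11.9, CDH5 at 18.1 and 9.78 and SOX2 at 9.3 and 10.9 CPM. Of these promoter REs, SNAI2 (log2 fold change -0.35, edgeR adjusted p = 0.0019) and LIN28A (-0.35, adjusted p = 0.039) were lower at 3 h. In bulk ATAC-seq a loss in a part of the cells and a partial loss in all cells cannot be told apart.

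After 3 h of dTAGV-1 many more REs had lost accessibility than had gained it. At an edgeR adjusted p under 0.05, 11,252 REs were lower (7.43% of those tested) and 1,381 higher (0.912%), so that 89.1% of the called REs had lost accessibility. The decreases were also larger. Among the lower REs the median log2 fold change was -1.07, with an 80% range from -2.22 to -0.53, and 6,139 fell by at least 1 and 1,603 by at least 2 on the log2 scale. Among the higher REs the median was 0.54, and 43 rose by at least 1. The median over all REs was 0.02.

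The lower REs were called from these same SOX9-tagged samples, so a loss over them is fixed by the choice. Its size in each differentiation is described here. Over the lower REs the median level was 6.37 CPM in the vehicle sample of R4 and 5.59 in that of R5, and 2.47 and 2.5 CPM in the 3 h samples. The 2 vehicle values lay above both 3 h values, and the samples did not overlap in 9,207 of these REs (81.8%), whereas both 3 h values lay below both vehicle values in 14.2% of all REs. The median log2 ratio of 3 h to vehicle was -1.16 in R4 and -0.96 in R5, and 70.9% of the lower REs had the larger change in R4. In WT cells the same REs had median log2 ratios of -0.03 (R4) and 0.06 (R5). The plot of the ratios in R4 against those in R5 shows the loss in SOX9-tagged cells as a tail along the diagonal.

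**Figure D1:**
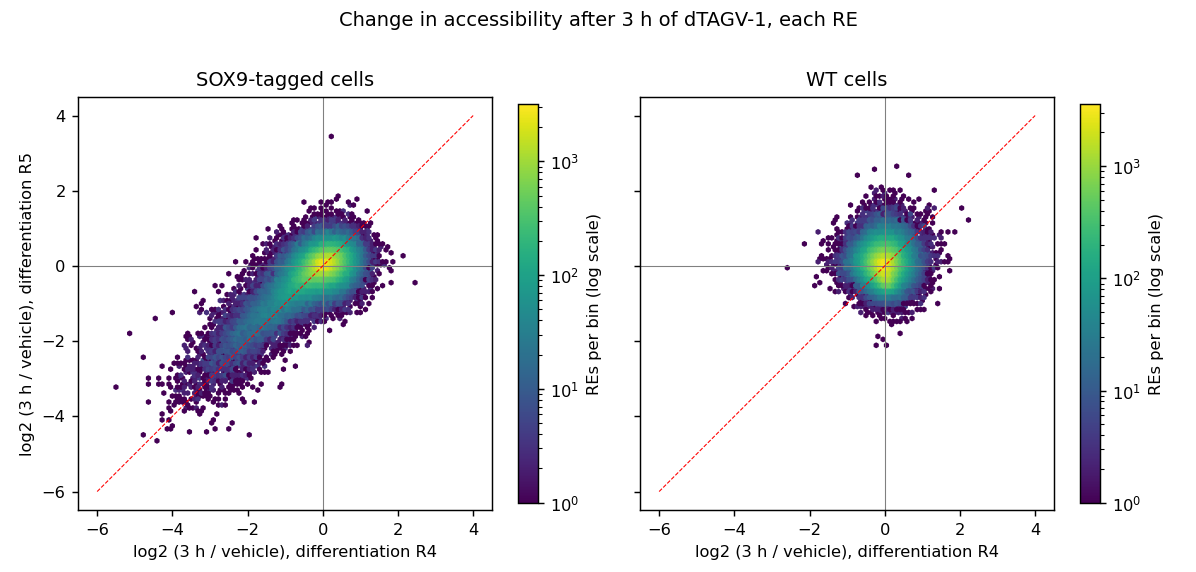
Log2 ratio of 3 h to vehicle (prior count of 2) in differentiation R4 (x axis) and R5 (y axis) for each RE, in SOX9-tagged (left) and WT cells (right), with colour for the number of REs per bin on a log scale and the diagonal dashed. In SOX9-tagged cells a tail of REs runs down the diagonal, and in WT cells no such tail is seen. Median ratios in SOX9-tagged cells were -1.16 (R4) and -0.96 (R5) over the lower REs, which were called from these samples.

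The call rests on pairing by differentiation. A fit with no replicate block called 0 REs in edgeR, although 8,306 had an unadjusted p under 0.05, and DESeq2 with the block called 8,059 lower and 464 higher REs, every one of them also called in the same direction by edgeR. Leaving out the vehicle sample of R4 gave 7,207 lower and 280 higher REs, while the 4 samples fitted alone gave 14,298 and 4,011, and total counts as scaling moved the lower share of calls from 89.1% to 80.7%.

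WT cells showed no called change at 3 h. In edgeR 0 REs passed the threshold (0% of those tested), with 3,656 at an unadjusted p under 0.05, and DESeq2 called 0, with 533. That count depended on the 3 h sample of R4. Without it 4,168 REs were lower and 146 higher, and in R5 the share of counts in promoter REs was 47.21% in WT vehicle and 43.4% in the WT 3 h sample. In SOX9-tagged cells that share rose from 43.75% to 45.63% in R4 and from 43.89% to 45.81% in R5. The part of this share in the counts of calls was not tested. The response itself differed between the genotypes at 3 h, tested as an interaction in edgeR, for 7,774 REs that moved lower in SOX9-tagged than in WT cells (5.13%) and for 109 that moved higher (0.072%). Of the 11,252 REs lower at 3 h, 7,614 (67.7%) passed this test, whereas 62 of the 1,381 higher REs (4.49%) did. Both comparisons use the SOX9-tagged samples. The 109 became 3,165 without the WT 3 h sample of R4 and 9 without the SOX9-tagged vehicle sample of R4.

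The 12 REs with the largest decreases lost nearly all accessibility, with 3.44% to 6.22% of the vehicle level left at 3 h. By rule they had at least 2 CPM in the higher group and no overlap of the samples. All 12 held at least 1 SOX core, against 46.9% of all REs of the most common width. All 12 passed the interaction test, which the choice largely fixed, as the test uses the same SOX9-tagged samples. In the separate set of samples all 12 were lower at 48 h, against 13.9% of all REs. In WT cells their log2 fold changes ran from -0.12 to 0.07. Of the 12 REs, 7 lay in introns.

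Near SOX10, the SOXE factor that drives glial and melanocyte fates, the RE chr22:37967856-37968356 overlaps an untranslated region of POLR2F. It held 35.7 and 19.2 CPM in vehicle (R4 and R5) and 1.39 and 1.51 CPM at 3 h. Both treated samples lay far under both vehicle samples (log2 fold change -4.17, SE 0.20, edgeR adjusted p = 1.3e-10). In WT cells it held 45.7 and 35.2 CPM in vehicle and 43.6 and 36.2 CPM at 3 h.

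The largest decrease was at PLD1, which encodes a phospholipase D. The intronic RE chr3:171776355-171776855 fell from 8.7 and 5.69 CPM to 0.282 and 0.213 CPM (log2 fold change -4.84, SE 0.31, adjusted p = 3e-09 in edgeR). In WT cells it stood at 15.9 and 12.7 CPM in vehicle and 16.5 and 12.7 CPM at 3 h. This RE holds 1 core and no facing pair.

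TTLL4, a tubulin glutamylase gene, has an RE over a start site and a coding exon, chr2:218745777-218746277. It went from 15.8 and 10.8 CPM to 0.893 and 0.762 CPM (log2 fold change -3.99, SE 0.24). At TENT5D, which encodes a terminal nucleotidyltransferase, the intronic RE chrX:80423578-80424078 went from 10.7 and 7.07 CPM to 0.517 and 0.372 CPM (-4.30, SE 0.22). It carries 4 cores, including a tandem pair 1 base apart that points in the same direction.
TENT5D, chrX:80423773-80423852: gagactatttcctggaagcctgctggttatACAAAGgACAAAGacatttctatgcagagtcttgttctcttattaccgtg

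Of the 12 REs, 2 hold facing cores at a gap of 3 to 5 bases, and both are shown above. The RE in an intron of OR6B3, an olfactory receptor gene, fell from 13.3 and 9.65 CPM to 0.799 and 0.479 CPM (-4.18, SE 0.22). The RE nearest to PIK3R1, a regulatory subunit of phosphoinositide 3-kinase, lies 441,864 bp from its start in an intron of LINC02997. It fell from 4.32 and 5.55 CPM to 0.329 and 0.23 CPM (-4.17, SE 0.29).

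Another 5 REs are nearest to CNTN3, KCTD3, CTLA4, FLRT2 and RIT2. Their distance to the nearest coding start ran from 6,872 bp (CNTN3) to 1,487,582 bp (FLRT2), so the named gene is a label of position only. The lowest level at 3 h was that of the RE near RIT2, at 0.0705 CPM in R4, and that RE had the largest SE of the 12 (0.37, log2 fold change -4.12). Its log2 fold change in WT cells was -0.12.

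**Figure D2:**
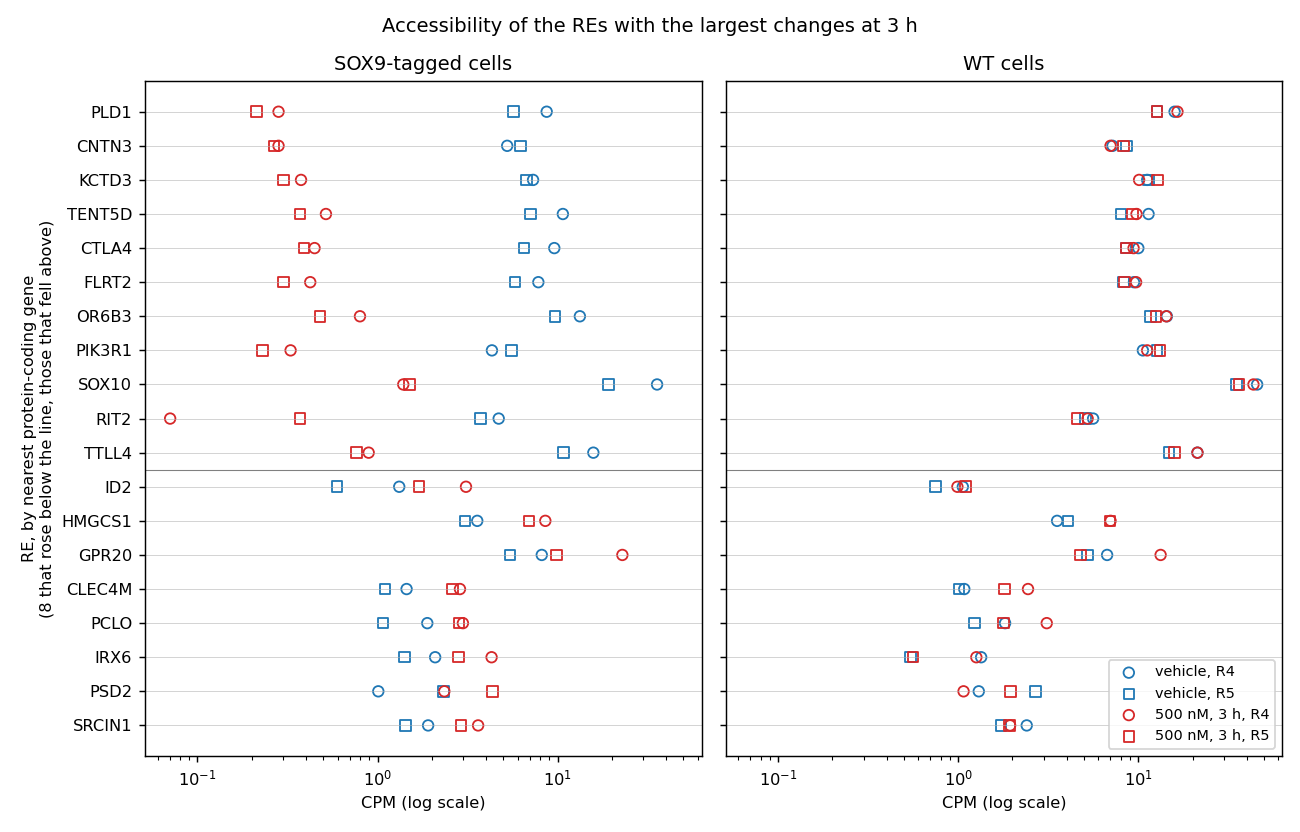
Accessibility in CPM (log scale) of the REs with the largest decrease (1 of the 12 is not shown) and the 8 with the largest increase at 3 h, one row per RE labelled by the nearest protein-coding gene, with vehicle in blue, 500 nM for 3 h in red, R4 as circles and R5 as squares. In SOX9-tagged cells (left) each red point of the rows above the line lies under its blue points, whereas in WT cells (right) the points of these rows lie together.

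The change at 3 h followed the number of SOX cores. Most REs have the same width, that of 1 summit window, and shares of motifs are given for these. Among them, 3.34% of the 65,726 without a core were lower, and the share was 8.87% with 1 core, 15.5% with 2, 22.4% with 3 and 29.9% with 4 or more. The share of higher REs ran the other way, from 1.15% without a core to 0.118% with 4 or more. Median log2 ratios over the REs with 4 or more cores were -0.34 (R4) and -0.31 (R5) in SOX9-tagged cells and -0.02 and 0.08 in WT cells. Seen from the calls, 75.4% of 8,922 lower REs of this width held a core, against 26.2% of 1,027 higher REs and 44.9% of the 113,829 REs that were neither. With 1 core only, ACAAAG gave 8.45% and ACAATG 9.58% of REs lower.

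The share also differed with the place of the core. In REs with a single core, 19% were lower when the core lay within 25 bases of the RE centre, which is the middle of the authors' summit window. The share was 13% from 50 to 75 bases, 6.64% from 100 to 150 and 4.7% beyond 200 bases. A core within 50 bases of the centre was present in 35.8% of lower REs, 2.24% of higher REs and 9.84% of the others. The plot of motif positions shows this as a peak of cores at the centre of lower REs and a dip at the centre of higher REs.

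REs with a pair of facing cores differed by the spacing of the pair. At a gap of 4 bases, 136 of 163 REs (83.4%) were lower, with median log2 ratios of -1.59 (R4) and -1.31 (R5) in SOX9-tagged cells and 0.01 and 0.02 in WT cells. At 3 bases 58 of 78 (74.4%) and at 5 bases 58 of 88 (65.9%) were lower. At the other gaps from 0 to 10 bases the share was 15.8% to 32.4%, except for a gap of 7 bases, with 31 of 63 (49.2%). None of the 328 REs with a gap of 3 to 5 bases was higher, which is near the 0.912% of all REs.

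Cores that point away from each other showed less of this. Everted pairs 3 to 5 bases apart were lower in 18% of 128 REs. The highest shares among everted gaps were 41% at 8 bases (25 of 61 REs) and 36.1% at 2 bases (13 of 36), and the others lay between 8.11% and 20%. REs with at least 2 cores but no facing pair at 3 to 5 bases were lower in 16.5% of cases, and those with a facing pair in 76.5%. These shares describe the REs, and were read with the spacing of 3 to 5 bases known from earlier results on these data.

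**Figure D3:**
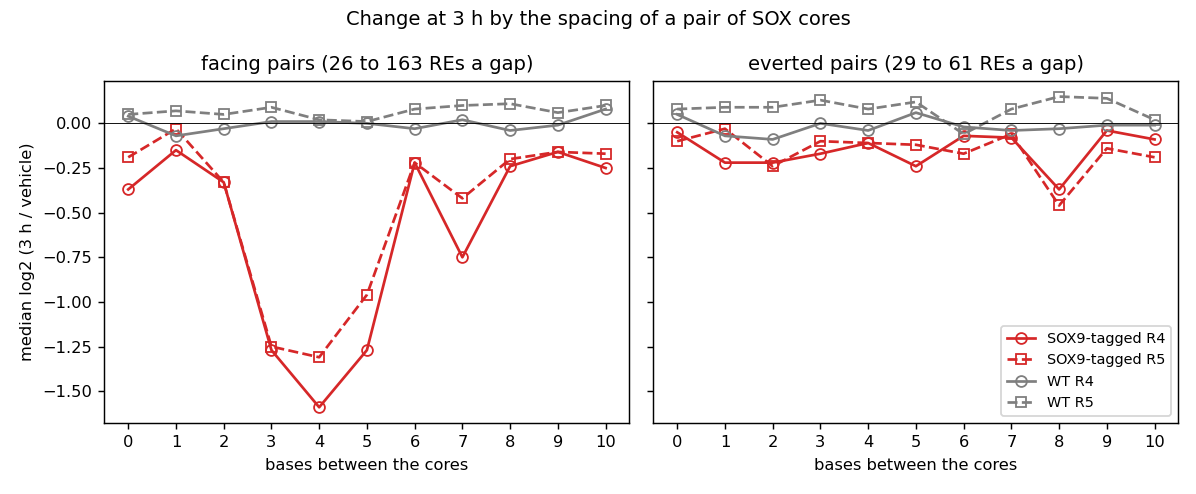
Median log2 ratio of 3 h to vehicle (y axis) of REs with a facing (left) or everted (right) pair of SOX cores, by the number of bases between the cores (x axis), for SOX9-tagged (red) and WT cells (grey), with R4 as circles and R5 as squares. In SOX9-tagged cells the medians of both differentiations fall below -0.9 at facing gaps of 3 to 5 bases, with smaller dips at a facing gap of 7 and an everted gap of 8, and in WT cells all medians lie close to 0.

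For the facing pair, too, the share was highest near the centre of the RE. Among REs of the common width, 108 of 112 (96.4%) were lower when the middle of the pair lay within 50 bases of the RE centre, and 50 of 54 (92.6%) from 50 to 100 bases. Farther out 39 of 85 (45.9%) were lower. The median log2 fold changes of the 3 groups were -2.28, -1.81 and -0.54, and the same REs in WT cells had medians from 0.00 to 0.07 in both differentiations.

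Other motifs were counted in the same way. The AP-1 word TGACTCA was found in 9.64% of lower, 8.96% of higher and 9.4% of the other REs of the common width. The TEAD word GGAATG was found in 32.9%, 33.2% and 30.7% and the RUNX word TGTGGT in 31.6%, 29.2% and 28.8%. The nuclear receptor word AGGTCA was found in 38.6% of lower, 44% of higher and 33.5% of the other REs, and the homeobox word TAATTA in 15.8%, 11.6% and 13.4%. The motif of CTCF, an architectural protein that marks insulators, was rare in REs that changed, in 0.448% of lower, 0.584% of higher and 4.22% of the other REs. Of the 4,852 REs with a CTCF motif, 0.824% were lower, against 7.47% of those without.

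Higher REs held fewer SOX cores and more E-boxes. The E-box CAGATG, a word bound by TWIST1 and other basic helix-loop-helix factors, was present in 63.2% of higher, 47.1% of lower and 41.5% of the other REs. Within 50 bases of the RE centre it was present in 31.3%, 20.6% and 18.1%. The TFAP2 word GCCNNNGGC was present in 32.3%, 18.7% and 23.4%. Higher REs were also richer in G and C, with a median of 54.9% against 44.5% in lower REs and 48.1% in all. Among REs of 50% to 60% GC the E-box was still found in 64.3% of higher, 44.5% of lower and 42.8% of the other REs, whereas the TFAP2 word came to 32.8%, 32.2% and 30.7%. Among REs of 40% to 50% GC the E-box was found in 70.1%, 49% and 45.8% and the TFAP2 word in 19.5%, 15.7% and 14.6%. Each word was searched on both strands, and a match is a description of the letters and not of binding.

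**Figure D4:**
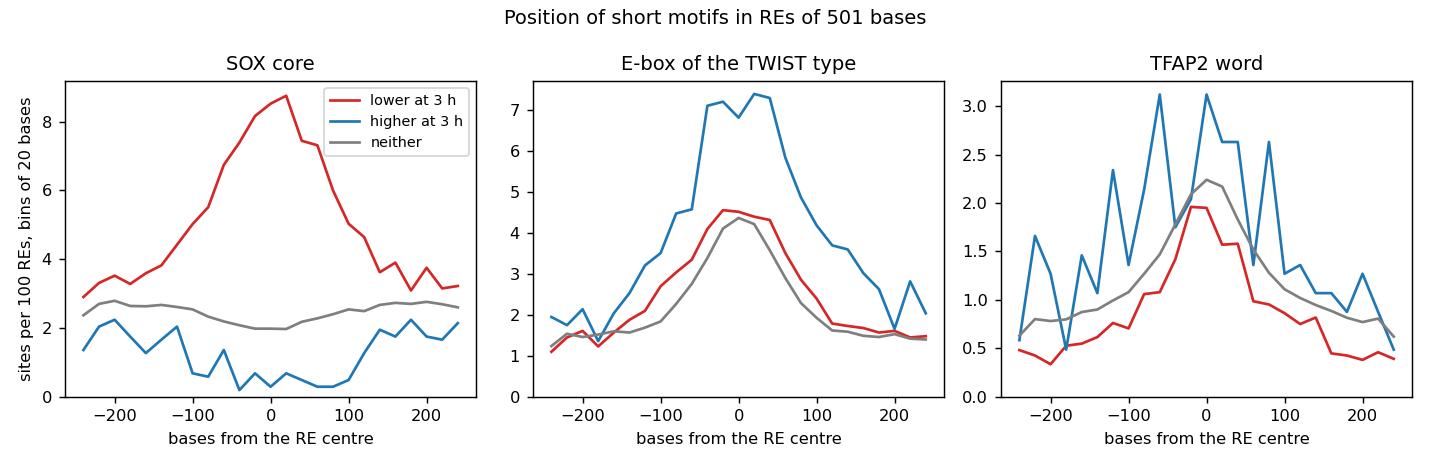
Sites per 100 REs (y axis, bins of 20 bases) of the SOX core, the TWIST-type E-box and the TFAP2 word by distance from the RE centre (x axis), in REs of the common width that were lower (red), higher (blue) or neither (grey) at 3 h. SOX cores peak at the centre of lower REs and dip in higher REs, and E-boxes at the centre are most frequent in higher REs.

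The 8 REs with the largest increase rose by about 1 on the log2 scale. Of these, 2 held a SOX core and 5 the E-box. Among REs of the common width, 46.9% of all and 26.2% of higher REs held a core, and 42.1% and 63.2% the E-box. Of the 8 REs, 5 were intergenic, against 29.8% of all and 31.9% of higher REs. The interaction test against WT cells was passed by 2, against 4.49% of the higher REs. The largest increase was that of the RE chr2:8614465-8614965, 63,880 bp from ID2, an inhibitor of basic helix-loop-helix factors. It rose from 1.32 and 0.595 CPM to 3.1 and 1.7 CPM (log2 fold change 1.36, SE 0.23, edgeR adjusted p = 4.3e-04). WT levels were 1.06 and 0.745 CPM in vehicle and 0.989 and 1.1 CPM at 3 h, and the interaction did not pass (adjusted p = 0.1). At 48 h it was higher as well (0.62, SE 0.15, adjusted p = 0.0022). Its central E-box is in capitals.
ID2, chr2:8614695-8614774: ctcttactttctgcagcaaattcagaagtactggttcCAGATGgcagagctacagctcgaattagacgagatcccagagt

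The REs near PSD2, which encodes an ARF exchange factor, and in an intron of SRCIN1, an inhibitor of SRC signalling, passed the interaction test. The PSD2 RE chr5:139764313-139764813 rose from 1.01 and 2.33 CPM to 2.35 and 4.34 CPM (log2 fold change 1.03), while in WT cells it held 1.3 and 2.68 in vehicle and 1.07 and 1.95 CPM at 3 h (edgeR interaction adjusted p = 0.0018). The SRCIN1 RE rose from 1.91 and 1.43 to 3.62 and 2.91 CPM (0.97), with 2.4 and 1.73 in WT vehicle and 1.94 and 1.93 CPM at 3 h (interaction adjusted p = 0.024). The SRCIN1 call at 3 h was lost without the vehicle sample of R5 (0.88, adjusted p = 0.057). In WT cells the PSD2 RE was lower at 3 h in both differentiations, and the SRCIN1 RE was lower in R4 and higher in R5.

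For others the WT values were higher at 3 h as well, although no RE passed the threshold in WT cells. The RE 7,796 bp from HMGCS1, an enzyme of cholesterol synthesis, rose from 3.58 and 3.07 CPM to 8.55 and 6.95 CPM in SOX9-tagged cells (log2 fold change 1.22, SE 0.15) and from 3.54 and 4.07 to 7.01 and 6.98 CPM in WT cells (0.88, SE 0.17, not past the threshold over all REs). The interaction was 0.33 (SE 0.23, edgeR adjusted p = 0.65). Both WT 3 h values lay above both WT vehicle values in 2 of the 8 REs. The share of all REs without overlap was not counted in WT cells. In SOX9-tagged cells it was 25.2%, in either direction. The RE near CLEC4M, a lectin gene, was the other of these 2 REs, with log2 fold changes of 1.11 (SOX9-tagged) and 1.02 (WT).

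Early loss came at REs with high starting levels and away from promoters. With REs ranked by vehicle level into 10 equal groups, 0.205% were lower in the lowest group (median 0.872 CPM) and 15.2% in the highest (median 26.9 CPM). The larger counts available to the test rise along with this share, and their part in it was not tested. Promoter REs, within 1,000 bp of a transcript start, were lower in 3.52% of cases, against 7.73% to 10.2% in the bins farther out. Promoter REs made up 11.7% of lower, 17.5% of higher and 24.7% of all REs, and introns 54.4%, 50.3% and 45.5%. By chromosome the lower share ran from 2.14% on chromosome 19 to 8.65% on chromosome 5.

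REs that cover a protein-coding start were lower in 324 of 18,552 cases (1.75%) and higher in 64 (0.345%). The examples given were picked by the size of their change. The RE over a start of PLEKHB1, whose facing cores are shown above, fell from 67.4 and 54.7 CPM to 4.39 and 4.29 CPM (log2 fold change -3.81, SE 0.12). One at HDAC4, a histone deacetylase that restrains chondrocyte hypertrophy, fell from 19.3 and 11.4 CPM to 1.83 and 1.03 CPM (-3.43, SE 0.20). One at ITGA6, an integrin subunit that binds laminin, fell from 23.6 and 18.7 CPM to 2.59 and 3.31 CPM (-2.82, SE 0.16). Such an RE can be an alternative start or an intron of a longer transcript, and transcription was not measured here.

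An RE was assigned to a gene if it lay in the gene or had its nearest protein-coding start there within 500 kb. The 15 genes with most lower REs were led by ZNF608, a zinc-finger gene, with 22 of 79 REs, RAD51B, a recombination factor, with 20 of 69, and MYCN, a MYC family factor, with 17 of 65. SOX5 had 17 of 63 and SOX6, its close relative, 15 of 84. The others were ADGRL2, EFNA5, SEMA6A, ADAMTSL1, ENSG00000284686, LIMCH1, NR2F2, PTPRD, TCF4 and NFIA, with 12 to 15 each, and NFIA was tied at 12 with genes not listed. The lower share in these genes ran from 14.4% (PTPRD) to 29% (RAD51B), against 7.43% of all REs. The choice by number of lower REs largely fixes that these shares lie above 7.43%. Among the 15 only NR2F2 had a higher RE (1 of 74), where 0.912% of all REs were higher. The choice by number of lower REs may also bear on the number of higher ones, which was not tested. Genes with many REs have more chances to be in this list. Among genes with at least 10 REs the highest share was that of MEGF10, a phagocytic receptor gene, with 10 of 20, which was named after its values were seen.

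Of the SOXE factors and their partners, SOX5 (17 lower REs), SOX6 (15) and SOX10 (2) held most of the lower REs. Over the 5 genes, 36 of 221 REs (16.3%) were lower and 6 (2.71%) higher, against 7.43% and 0.912% of all REs, with a median log2 fold change of -0.07 against 0.02 over all REs. All 6 higher REs belong to SOX9, where 2 of 60 were lower. The SOX9 promoter RE chr17:72119993-72121187 held 36.8 and 33.8 CPM in vehicle and 37.3 and 38.2 CPM at 3 h (0.10, SE 0.08, edgeR adjusted p = 0.6), and the SOX9 RE with the smallest p, 295,311 bp from the start, rose from 11.4 and 8.54 to 18.4 and 12.3 CPM (0.61, SE 0.11, adjusted p = 7.3e-04). For that RE the interaction with WT cells did not pass (edgeR adjusted p = 0.082), and the call was lost without the vehicle sample of R4 (0.51, adjusted p = 0.072).

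SOX5 and SOX6 work with SOX9 at cartilage genes. The SOX5 promoter RE fell from 51.5 and 34.4 to 31.7 and 22.5 CPM (log2 fold change -0.66, SE 0.08, adjusted p = 7.1e-06 in edgeR). Its intronic RE chr12:24020504-24021004 fell from 11.6 and 10.1 to 1.43 and 1.33 CPM (-2.97, SE 0.18). The SOX6 promoter RE held 35.4 and 38.1 CPM in vehicle and 32.4 and 34.6 CPM at 3 h and did not pass (-0.13, SE 0.08, adjusted p = 0.41). A SOX6 RE 130,709 bp from its start fell from 26.1 and 20.9 to 4.61 and 3.65 CPM (-2.51, SE 0.13). At SOX8 none of 5 REs was called. The SOX9, SOX5 and SOX6 REs away from the promoter were picked as those with the smallest p of their gene.

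Cartilage matrix genes had lower REs at 9 of 15 genes and higher REs at none. Other genes with as many REs were not counted, and 0 higher REs among 120 is near the 0.912% of all REs. In all, 17 of 120 REs (14.2%) were lower, against 7.43% of all REs. Of the 35 REs within 1,000 bp of a start 9 were lower, where 3.52% of all promoter REs were lower. Where only the promoter RE with the highest vehicle level was taken per gene, it was lower in 3 of 13 genes, COL2A1, COL9A2 and HAPLN1. COL2A1 encodes the chain of type II collagen, the main cartilage collagen. Its promoter RE chr12:47988324-47988824 fell from 44.5 and 60.5 to 12.3 and 27.5 CPM (-1.51, SE 0.16, edgeR adjusted p = 2.1e-06). COL9A2 encodes a chain of type IX collagen, which coats type II fibrils, and its promoter RE fell from 46.9 and 30.1 to 23.9 and 17.9 CPM (-0.87, SE 0.10). HAPLN1 links aggrecan to hyaluronan, and its promoter RE fell from 47.5 and 34.9 to 33.9 and 30.5 CPM (-0.34, SE 0.08), a call that did not carry to the interaction with WT cells (adjusted p = 0.4). The HAPLN1 call was lost in DESeq2 (adjusted p = 0.13), with total counts (-0.28, adjusted p = 0.056), without the 3 h sample of R4 (-0.19, adjusted p = 0.44) and without the vehicle sample of R4 (-0.27, adjusted p = 0.34).

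At ACAN, which encodes the proteoglycan aggrecan, the promoter RE with the highest vehicle level held 4.41 and 4.99 CPM in vehicle and 4.42 and 5.58 CPM at 3 h. An upstream RE 26,365 bp away, chr15:88776571-88777071, went from 3.93 and 0.425 CPM to 0.141 and 0.142 CPM (-3.54, SE 0.56, edgeR adjusted p = 2e-04), and the differentiations already differed several-fold in vehicle. This call was lost in DESeq2 (adjusted p = 0.056), without the 3 h sample of R4 (-2.02, adjusted p = 0.092) and without the vehicle sample of R4 (-1.60, adjusted p = 0.34), and the value was -4.76 without the vehicle sample of R5. In an intron of CNMD, which encodes chondromodulin, an RE 951 bp from the start fell from 2.7 and 2.82 to 0.47 and 0.479 CPM (-2.54, SE 0.27). At COL9A3, another type IX collagen gene, an RE 638 bp from the start fell from 4.91 and 4.77 to 1.5 and 2.48 CPM (-1.30, SE 0.21). The ACAN, CNMD and COL9A3 REs were picked as those with the smallest p of their gene. COL11A1 (26 REs), COL11A2, MATN1, MATN3, COMP and CHAD had no called RE. For COL11A1 the promoter RE held 90 and 57.1 CPM in vehicle and 84.5 and 57.6 CPM at 3 h.

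Over the 16 cranial neural crest factors 65 of 542 REs (12%) were lower and 5 (0.923%) higher, against 7.43% and 0.912% of all REs. The median log2 fold change of the 542 REs was -0.06. At least 1 lower RE was found at 15 of the 16 genes, which have 6 to 76 REs each. A gene with many REs has more chances to hold 1, and other genes with as many REs were not counted. Of the 84 REs within 1,000 bp of a start, 8 were lower, where 3.52% of all promoter REs were lower. Where only the promoter RE with the highest vehicle level was taken per gene, 1 of 16 was lower, that of SNAI2, a regulator of crest delamination, which fell from 68.9 and 56.2 to 50.8 and 46.8 CPM. The other 15 did not pass the threshold, for example TFAP2A at 33.8 and 36.7 CPM in vehicle and 34.1 and 35.4 CPM at 3 h. In WT cells the SNAI2 promoter RE changed by -0.17, and the interaction did not pass (edgeR adjusted p = 0.65). The SNAI2 call was lost without the 3 h sample of R4 (-0.25, adjusted p = 0.068) and without the vehicle sample of R4 (-0.31, adjusted p = 0.059).

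The RE with the smallest p of each gene was also taken, a choice that favours large changes. Its change was still small at some genes. At ALX1 it did not pass (log2 fold change -0.14, edgeR adjusted p = 0.25). At TWIST1 it changed by -0.29 (edgeR adjusted p = 0.033), a call lost in DESeq2 (adjusted p = 0.26). Some of the larger changes are given here. At ETS1, a factor of the migratory crest, the intronic RE chr11:128552879-128553379 fell from 25 and 17.9 to 1.88 and 1.4 CPM (-3.71, SE 0.18, adjusted p = 1.3e-10 in edgeR), although it holds no SOX core by the words used here. At ZEB2, a repressor of epithelial genes, an RE 249,783 bp from the start fell from 12.7 and 5.57 to 1.6 and 1.13 CPM (-2.66, SE 0.20). At PAX3, a factor of the early crest, one 296,434 bp away fell from 3.43 and 2.28 to 0.893 and 0.284 CPM (-2.36, SE 0.30).

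Others of the list were chosen in the same way. At MSX2, a homeobox gene of skull and jaw, an RE 200,901 bp away fell from 32.9 and 19.3 to 7.85 and 4.22 CPM (-2.13, SE 0.12). At NR2F1, a nuclear receptor gene, an RE 45,642 bp away in an intron of FAM172A fell from 10.9 and 9.99 to 3.15 and 3.94 CPM (-1.56, SE 0.16), and at NR2F2 an RE 305,321 bp away fell from 29.9 and 28.7 to 13.3 and 13.2 CPM (-1.14, SE 0.10). At MSX2 3 of 43 REs (6.98%) and at NR2F1 4 of 56 (7.14%) were lower, near the 7.43% of all REs. NR2F2 had 13 of 74 (17.6%) lower. MSX1 had 2 lower (5.56%) and 2 higher REs of 36 and ALX4 2 (6.67%) and 2 of 30, and ALX1 had no called RE among 11.

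Glial and melanocyte genes had 11 of 82 REs lower (13.4%, against 7.43% of all REs) and none higher, near the 0.912% of all REs. Cartilage regulators had 21 of 238 lower (8.82%), near the share of all REs. WWP2, the host gene of the cartilage microRNA miR-140, had 4 of 15 lower and the osteoblast factor RUNX2 4 of 37. NKX3-2, FOXC2, BARX1, PTH1R and GDF5 had none lower. Higher REs of this list were 3 (1.26%, against 0.912% of all REs), 2 at RUNX2 and 1 at BARX1. Feedback genes of signalling pathways had 31 of 330 lower (9.39%) and 7 higher (2.12%), with 5 lower and 5 higher REs at NKD1, an inhibitor of WNT signalling. Immediate early and AP-1 genes had 5 of 97 lower (5.15%), with 3 of 25 at JUN, 1 of 4 at FOSL1, 1 of 24 at FOSL2 and none at the other genes of the list, and housekeeping genes 3 of 56 (5.36%). The lists were not tested against other genes.

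The separate set of samples at 48 h gave the later state of the same REs. There, 21,114 REs were lower at 500 nM than at 0 nM (13.9%) and 15,432 higher (10.2%). Of the 11,252 REs lower at 3 h, 9,133 (81.2%) were lower at 48 h, 110 (0.978%) were higher and 2,009 (17.9%) were not called. Conversely 43.3% of the REs lower at 48 h were lower at 3 h. No sample is shared, but a differentiation named R5 occurs in both sets.

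The higher REs carried over to a smaller extent. Of the 1,381 REs higher at 3 h, 249 (18%) were higher at 48 h, against 10.2% of all REs. A further 310 (22.4%) were lower, against 13.9% of all REs, and 822 were not called. Of the REs higher at 48 h, 1.61% had been higher at 3 h, against 0.912% of all REs. The median log2 fold change of the REs higher at 3 h was 0.25 at 24 h, in a comparison that shares its vehicle samples with the 3 h one, and -0.03 at 48 h.

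REs with a larger decrease at 48 h had a larger decrease at 3 h. For the 61 REs with a log2 fold change under -4 at 48 h, the median log2 ratio at 3 h was -3.62 (R4) and -3.16 (R5). It was -2.24 and -1.96 for 1,192 REs from -3 to -2, and -1.34 and -1.13 for 4,295 REs from -2 to -1. The 15,241 REs that fell by less than 1 at 48 h had -0.21 and -0.19, and 26.3% of them were lower at 3 h. REs that were higher at 48 h had medians of 0.06 to 0.13 at 3 h. WT medians lay from -0.03 to 0.15 in every group.

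**Figure D5:**
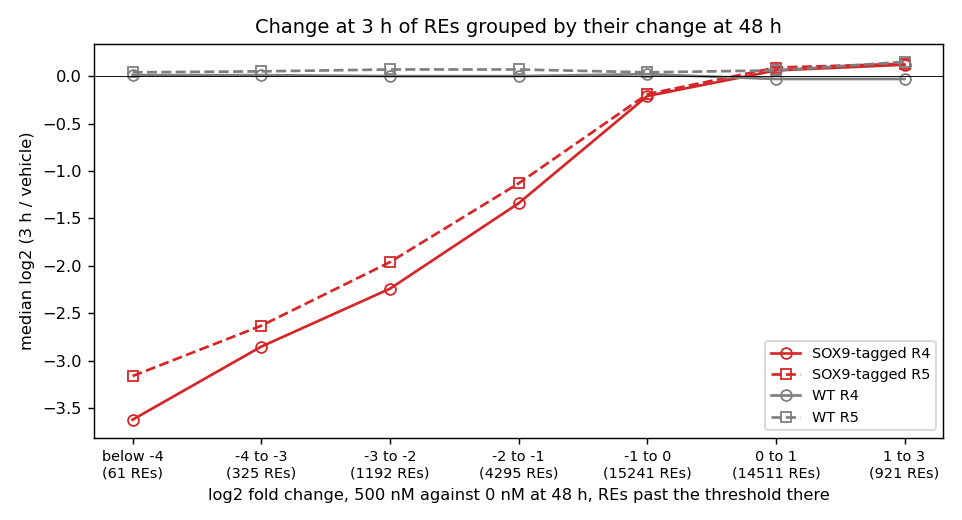
Median log2 ratio of 3 h to vehicle (y axis) of REs past the threshold at 48 h, grouped by their log2 fold change at 48 h (x axis, with the number of REs), for SOX9-tagged (red) and WT cells (grey), with R4 as circles and R5 as squares. In SOX9-tagged cells the medians run from -3.62 (R4) in the group under -4 to close to 0 in the groups that rose, and in WT cells they stay near 0 throughout.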

How the data were processed

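ATAC-seq was carried out on CNCCs differentiated from H9 cells. The deposited table holds counts, whole reads per RE and sample with no normalization. According to the methods, the authors trimmed adapters, aligned to hg38 with Bowtie2 2.4.1, removed duplicate, mitochondrial and low-quality reads with SAMtools 1.10, called summits with MACS2 2.2.7.1, kept merged summits found in several differentiations or lines, extended and merged them into REs and counted reads per sample. The counting tool is not given in the sources used here. One set of REs was counted in all samples, so regions open in few samples were not measured.

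Counts of all 151,457 REs were fitted with edgeR 4.0.16 (TMM, trended dispersion, quasi-likelihood F test, no filter) in R 4.3.3, over the 6 time-course samples of a genotype with differentiation as replicate block. The interaction used the 12 samples with genotype by differentiation as block, and the 48 h comparison 14 samples with differentiation as covariate. The interaction is the difference of the 3 h effects. P-values were adjusted over all REs (Benjamini-Hochberg), and 0.05 was the threshold. SEs were derived from the F statistic. CPM used TMM library sizes. DESeq2 1.42.0 was an alternative, as in the methods of the study. The fits were tested on simulated counts. Exact permutation of 2 against 2 samples cannot reach the threshold, so single values have no test of their own.

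Samples were grouped by title, and differentiation pairs them. Vehicle and 3 h samples of a differentiation deviated together from their group means (correlation 0.8974 in SOX9-tagged and 0.8387 in WT cells, REs with a mean of at least 100 counts). Separate differentiations are the replicates, and 2 per group limit the precision of every SE.

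Coordinates are 1-based hg38, and genes and starts come from GENCODE. Described are the 12 REs with the most negative and the 8 with the most positive log2 fold change past the threshold, with at least 2 CPM and no overlap of samples. For each gene of 3 lists the promoter RE with most vehicle CPM and the RE with the smallest p are described, and also the 15 genes with most lower REs. A few of these results and sequences are not reported here. Comparisons, gene lists and motifs were chosen with earlier results of these data known.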

Additional observations from a re-analysis of the deposited data

Results flagged for a closer look

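The response at 3 h differed between SOX9-tagged and WT cells, by the interaction test in edgeR, for 7,774 REs that moved lower and 109 that moved higher in SOX9-tagged cells. Among the REs with the largest changes, 12 of the 12 that fell and 2 of the 8 that rose passed this test, the latter near PSD2 and in SRCIN1. These REs were picked by their change in the SOX9-tagged samples that the test also uses, so these counts are no separate support. Groups of 2 samples are too small for a check of single outlying samples.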

How the results depend on the processing

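The loss of accessibility at 3 h kept its direction throughout. With the differentiation pairing, the number of lower REs in SOX9-tagged cells stayed within 1.5 times of 11,252 in every setting except without the vehicle sample of R4. With no replicate block it was 0, as was the number of higher REs. Leaving out 1 of the 4 samples gave 7,207 to 10,801 lower and 280 to 2,150 higher REs. The number of higher REs was 464 in DESeq2, 4,011 in the 4 samples only, 2,321 with total counts and 816 with all 12 time-course samples. The replicate block with a GC correction gave 10,630 lower and 1,895 higher REs. Total counts moved the median of all REs to 0.08 on the log2 scale, and 80.7% of the calls were then lower, as were 78.1% in the 4 samples only.

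In WT cells the main count of 0 became 0 to 4,168 lower and 0 to 146 higher REs when 1 sample was left out, 2 higher with the replicate block and GC correction, 3 higher with total counts, and 1 lower and 8 higher with promoter REs as scaling. The interaction gave 59 REs moving higher in DESeq2, 274 with the block and GC correction, 391 in the 8 samples only, 177 with total counts and 31 with promoter scaling. With 1 sample left out it gave 4,715 to 8,620 lower and 9 to 3,165 higher, and with no replicate block 684 and 0. At 48 h no replicate block gave 10,503 lower and 4,601 higher REs. Facing cores at any gap from 0 to 10 bases gave 53.5% lower in place of 76.5%. Of the 82 individually described REs, 50 passed the threshold. Over their alternatives, 976 values kept their side of the threshold, 81 lost the call (50 of these with no replicate block), and 9 gained it. No RE past the threshold changed sign, whereas some REs that had not passed it did. Apart from the settings that leave out samples, the cause of these differences was not tested. filterByExpr removed no RE from the time-course fits. The 2 differentiations per group and the depth of the 3 h sample of R4 limit small changes.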
